A study of Homo sapiens with 4 samples.

Results

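The response of RC-K8-R to interleukin-21 (IL-21) was read as the difference between 2 arrays, IL-21 treated minus untreated, out of 4 arrays in the series. RC-K8 is an established human diffuse large B-cell lymphoma line that dies by apoptosis when given IL-21. RC-K8-R was derived from it by exposure to rising IL-21 doses for 10 weeks and is resistant. The groups were untreated RC-K8, RC-K8 with IL-21 at 100 ng/mL for 6 h, untreated RC-K8-R, and RC-K8-R with the same IL-21 dose and time. All 4 cultures were grown in RPMI medium with fetal bovine serum, and each sample was set against a common human reference RNA on its array. The labels do not say whether RC-K8-R is a clone or a mixed population, or whether IL-21 was withdrawn before the untreated culture was taken. There was 1 array per group, so no test was possible, no p-value is given, and the spread between cultures is unknown.

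The array values were read as log2 ratios of sample over reference, and the median of the 23260 probes (of 31095) that had a value on all 4 arrays was subtracted within each array. A gene's level is the median of its probes' centred ratios, and its response is the median of its probes' differences. Values were available for 13446 genes, of which 9067 had 1 probe and 4379 had 2 or more. A difference of 1 is 2-fold and a difference of 0.585 is 1.5-fold. The 12285 genes with a mean log2 ratio of -2 or more over the 4 arrays are called well measured here, and most weight was given to them and to genes whose probes had the same direction. That mean includes the RC-K8 arrays, so a gene can be well measured while below -2 on both RC-K8-R arrays.

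IL-21 is a cytokine of T helper cells that acts on B cells through IL21R and the common gamma chain IL2RG. The receptor chains carry the kinases JAK1 and JAK3, which phosphorylate STAT3 and STAT5. These factors enter the nucleus and bind short palindromic elements near target genes, among them the SOCS feedback inhibitors, the repressor BCL6 and the growth regulator MYC. In B cells IL-21 can drive proliferation, plasma cell differentiation or death, depending on the other signals the cell receives.

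RC-K8-R had few differences between its arrays, and these lay mostly among genes with low ratios. At 2-fold, 46 genes (0.342%) were higher and 81 (0.602%) lower with IL-21, together 0.945% of all genes. Of the well-measured genes, 9 (0.0733%) were 2-fold higher and 20 (0.163%) lower, together 0.236%. In RC-K8 the same counts over well-measured genes were 167 and 167 (2.72%). Differences within 0.2 of 0 made up 75.8% of the well-measured genes in RC-K8-R and 48.5% in RC-K8. Their SD over genes was 0.209 in RC-K8-R and 0.403 in RC-K8.

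The spread of the RC-K8-R differences followed the level of the gene. Below a mean ratio of -4 the SD over 247 genes was 0.634, and between -4 and -2 it was 0.569 over 914 genes. It was 0.227 between -2 and 0, 0.185 between 0 and 2, and 0.249 in the 332 genes at 2 or more. In that highest class 2-fold differences were found in 0.602% of genes in RC-K8-R and in 16.9% in RC-K8. In the lowest class they were found in 9.31% and 7.69%, so the lines were alike in number only where ratios were low. The median SD between probes of a gene was 0.115 for well-measured genes with several probes and 0.271 for genes below -2.

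**Figure D1:**
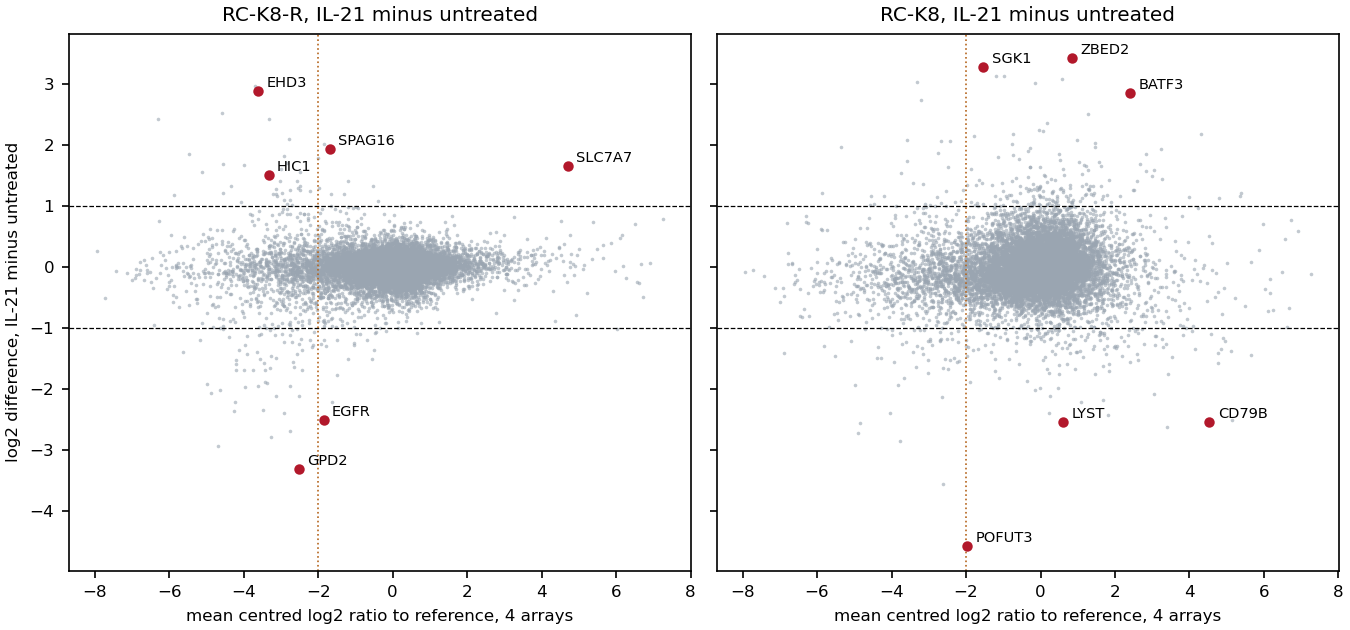
Each point is 1 of 13446 genes, with the mean centred log2 ratio to the reference over 4 arrays on the x axis and the IL-21 minus untreated log2 difference on the y axis, for RC-K8-R (left) and RC-K8 (right). Dashed lines mark 2-fold and the dotted line a mean ratio of -2. To the right of the dotted line 29 genes lie past 2-fold in RC-K8-R and 334 in RC-K8.

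Probes that measure the same gene gave the same picture. Of the 4379 genes with 2 or more probes, 7 had every probe at 1.5-fold or more in the same direction in RC-K8-R (0.16%), all of them lower with IL-21. In RC-K8 there were 240 such genes (5.48%). With every probe at 2-fold the count was 1 gene in RC-K8-R, the adenylyl cyclase ADCY9 (probes at -2.56 and -1.34), and 68 genes in RC-K8.

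The components that carry the IL-21 signal were close to the same level on both RC-K8-R arrays. None of the 10 measured receptor and JAK-STAT genes reached 1.5-fold, against 3.29% of all genes. The median response was 0.07 against 0.00 over all genes, with a range from -0.18 to 0.15. The receptor chain IL21R was at 3.01 untreated and 3.13 with IL-21, close to its 2.94 and 3.02 in RC-K8. IL2RG was at -2.46 and -2.39, well under its levels of 0.80 and 0.41 in RC-K8 on both arrays. IL21R thus had similar levels in both lines and IL2RG did not, whether or not IL-21 was given. Each of these genes had 1 probe, and the difference between lines was not tested.

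The kinases and STAT factors of RC-K8-R showed no 1.5-fold difference on complete probes. JAK1 was at 0.97 and 1.06 and JAK3 at 1.03 and 0.80. STAT3, the main factor of the IL-21 receptor, was at 1.35 and 1.36, with 3 probes between -0.05 and 0.01. In RC-K8 STAT3 went from 1.06 to 2.13, so its level with IL-21 there was above both RC-K8-R arrays. A further STAT3 probe, blank on the untreated RC-K8 array, was at 1.82 and 2.53 in RC-K8-R and did not follow the others. STAT5A (-0.15 and -0.09) and STAT5B (0.36 and 0.37) were level in RC-K8-R, while in RC-K8 they were 0.82 and 0.55 higher with IL-21.

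Feedback inhibitors of cytokine signalling were likewise level on complete probes, with 0 of 17 at 1.5-fold (3.29% of all genes were). Of the 17, 13 were above 0 (51% of all genes were above 0). SOCS3, which blocks JAK activity, was at -2.21 untreated and -2.03 with IL-21 in RC-K8-R, and at -1.82 and 1.31 in RC-K8. A further SOCS3 probe, blank on both untreated arrays, was at -0.61 in RC-K8-R and 0.60 in RC-K8 with IL-21. It gives no response for either line. SOCS1, with the same role, was at 1.09 and 1.27 on 2 probes, against 0.84 and 1.68 in RC-K8. The highest of the 17 was SOCS4, at 2.14 and 2.67 on 1 complete probe, a difference of 0.53 that was 0.59 in RC-K8. A further SOCS4 probe had a value on the untreated RC-K8-R array alone (2.44). The phosphatase PTPN2, which acts on JAKs and STATs, was at 0.40 and 0.39. CISH, a target of STAT5, was at -2.55 and -2.71 in RC-K8-R and at -2.25 and -2.14 in RC-K8, so it was low on all 4 arrays.

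**Figure D2:**
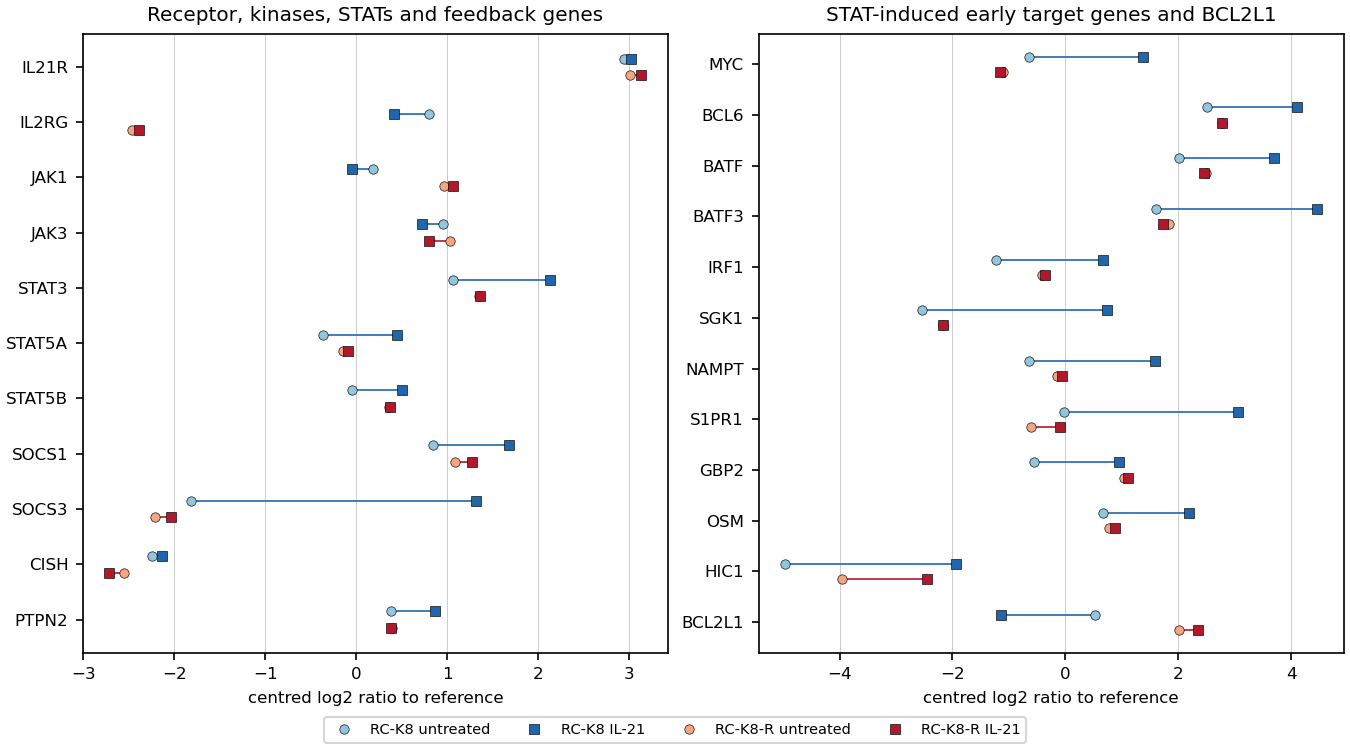
Centred log2 ratios to the reference (x axis) of signalling genes (left) and early target genes with BCL2L1 (right) on each of the 4 arrays, circles untreated and squares with IL-21, with a line joining the arrays of a line. The RC-K8-R pairs nearly coincide for STAT3 (1.35 and 1.36) and BCL6 (2.77 and 2.77), where the RC-K8 pairs are far apart.

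Early target genes of STAT factors had higher values with IL-21 in RC-K8 and nearly level values in RC-K8-R. Of 24 measured, 13 were at 1.5-fold or more in RC-K8, all higher (5.82% of all genes), with a median of 0.78. In RC-K8-R 1 of the 24 passed 1.5-fold, near the 3.29% of all genes that did, and the median was 0.07. MYC had 3 probes, at -0.05, 0.07 and 0.12 in RC-K8-R, and at 3.02, -0.08 and 3.74 in RC-K8. BCL6, the repressor of the germinal centre program, was at 2.77 and 2.77, and in RC-K8 at 2.52 and 4.11. The AP-1 partners BATF (2.49 and 2.46) and BATF3 (1.83 and 1.73) stayed within 0.10 in RC-K8-R and were 1.68 and 2.86 higher in RC-K8. IRF1, an interferon regulatory factor, was at -0.41 and -0.36, and the kinase SGK1 at -2.17 and -2.16. On both RC-K8-R arrays IRF1 was above untreated RC-K8 (-1.24) and below treated RC-K8 (0.66).

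The exceptions among these targets were small or rested on 1 complete probe at a low ratio. S1PR1, the sphingosine-1-phosphate receptor of lymphocyte egress, was at -0.60 and -0.09 on 1 probe. That difference of 0.51 was matched or exceeded by 1.72% of genes at its level, and S1PR1 was 3.08 higher in RC-K8. HIC1, a transcriptional repressor, was at -3.96 and -2.45 on its 1 complete probe, which is 1.51. A second HIC1 probe, blank on the treated RC-K8 array, was at -0.33 and -0.60 in RC-K8-R, so its probes disagreed in direction. No other early target gene reached 1.5-fold, with PIM3 (0.30), CD274 (0.31) and JUNB (0.36) the next highest.

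The promoters of these genes were searched for the STAT palindrome TTCNNNGAA, which reads the same on both strands, in the 250 bases before the start site. The sequences are from RefSeq, build GRCh38.p14. Those of IRF1, BCL6 and CISH, which hold a match to the motif, are shown as examples. CD274, EGR1 and ID3 also hold a match and are not shown. The motif was present in 6.57% of all 35116 promoter windows and in at least 1 window of 7.4% of the measured genes with one. It was in 6 of the 29 early target and feedback genes that had a window (20.7%), a hand-chosen list of known targets, which were BCL6, CD274, CISH, EGR1, ID3 and IRF1. Capitals mark the motif below.
IRF1, chr5:132490774-132491023, minus strand: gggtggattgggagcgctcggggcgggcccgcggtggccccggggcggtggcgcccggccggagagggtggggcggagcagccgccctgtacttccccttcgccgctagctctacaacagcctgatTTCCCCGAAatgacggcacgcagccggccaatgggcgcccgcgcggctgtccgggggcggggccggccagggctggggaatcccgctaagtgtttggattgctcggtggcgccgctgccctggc
BCL6, chr3:187745469-187745718, minus strand: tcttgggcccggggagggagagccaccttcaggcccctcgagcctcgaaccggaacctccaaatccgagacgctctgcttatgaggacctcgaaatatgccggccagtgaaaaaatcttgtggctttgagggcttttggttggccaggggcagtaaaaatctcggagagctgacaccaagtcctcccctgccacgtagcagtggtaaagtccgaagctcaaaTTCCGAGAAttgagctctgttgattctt
CISH, chr3:50611775-50612024, minus strand: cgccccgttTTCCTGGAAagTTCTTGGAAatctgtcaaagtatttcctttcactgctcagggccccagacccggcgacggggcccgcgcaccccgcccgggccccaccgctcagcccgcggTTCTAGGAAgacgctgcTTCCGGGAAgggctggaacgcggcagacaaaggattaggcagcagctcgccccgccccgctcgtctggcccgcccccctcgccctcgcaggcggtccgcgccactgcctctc

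The IRF1 motif began 124 bases before the start site, the BCL6 motif 28 bases before it, and the 4 CISH motifs 241, 230, 129 and 112 bases before it. A second BCL6 window, at another start site, held no match. In RC-K8-R the 6 genes with the motif had responses of -0.00 (BCL6), 0.31 (CD274), -0.16 (CISH), -0.28 (EGR1), -0.01 (ID3) and 0.05 (IRF1). In RC-K8, IRF1 (1.90) and BCL6 (1.59) were 2-fold higher, and CISH (0.11), EGR1 (0.18), ID3 (-0.28) and CD274 (-0.36) were not. Among genes 2-fold higher in RC-K8-R the motif was in 2 of the 30 with a window (6.67%), and among those 2-fold lower in 2 of 54 (3.7%). Among genes 2-fold higher in RC-K8 it was in 9 of 155 (5.81%). Each of these shares lay under the 7.4% of measured genes. A match is a string of letters and does not show binding.

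The genes with the largest responses in RC-K8 stayed near their untreated level in RC-K8-R. Among the 10 well-measured genes highest in RC-K8 with IL-21, RC-K8-R responses ran from -0.10 (BATF3) to 0.51 (S1PR1). They included ZBED2 (0.29), SGK1 (0.01), CEMIP2 (0.01), JMY (0.18), the NAD synthesis enzyme NAMPT (0.10) and the steroid receptor co-chaperone FKBP5 (-0.02). Probes of CEMIP2 lay between -0.02 and 0.04 and those of NAMPT between 0.01 and 0.10. Among the 10 lowest in RC-K8, the serotonin receptor HTR2B was at 5.85 and 5.88 in RC-K8-R and the urokinase gene PLAU at 2.40 and 2.40. The transcription factor MYB was at 1.10 and 0.94 and the lysosomal trafficking regulator LYST at 1.46 and 1.25. CD79B, the signalling subunit of the B cell receptor, was the exception, at 5.24 untreated and 6.00 with IL-21.

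Over all 334 well-measured genes at 2-fold in RC-K8, 78.1% lay within 0.2 of 0 in RC-K8-R and 2.1% reached 1.5-fold, against 1.86% of all well-measured genes. For the 167 with higher values in RC-K8 the RC-K8-R median was 0.03, with 5% below -0.22 and 5% above 0.38. For the 167 with lower values it was 0.01. The 2 responses come from separate arrays, and over the 12285 well-measured genes their correlation was 0.024 (Pearson's r) and 0.027 (Spearman's rho). Genes are no independent replicates, and with 1 array per group no difference between lines was tested.

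**Figure D3:**
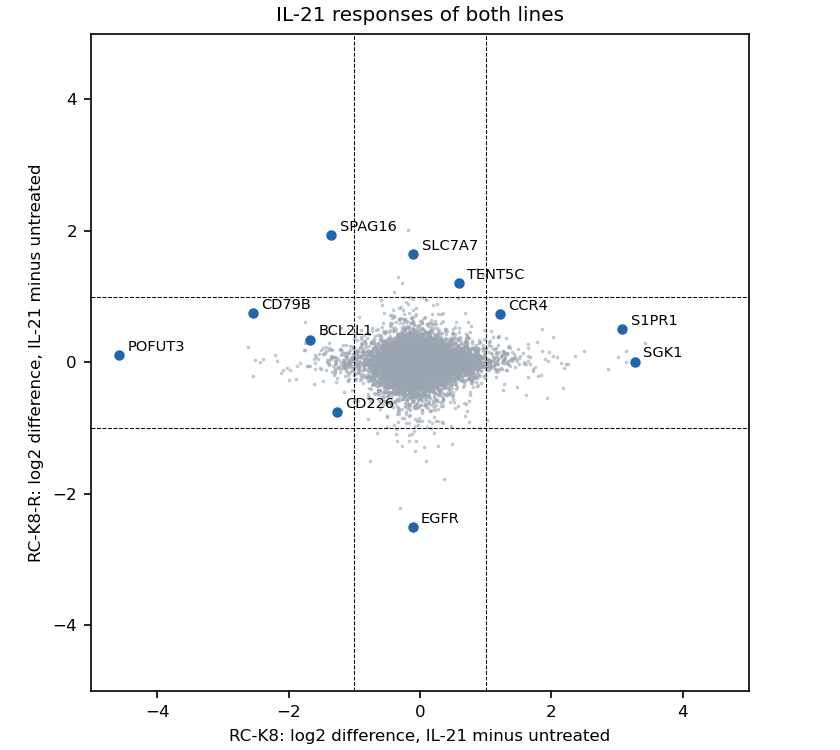
The RC-K8-R response (y axis) against the RC-K8 response (x axis), both as log2 difference of IL-21 minus untreated, for the 12285 genes with a mean log2 ratio of -2 or more. Dashed lines mark 2-fold. The points spread along the x axis, and 1 gene, SPAG16, is past 2-fold in both lines, in opposite directions.

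MYC targets and ribosome biogenesis genes formed the list with the highest median in RC-K8, 0.995 over 35 genes, with 35 of 35 above 0. Of these 27 were at least 1.5-fold higher, against 5.82% of all genes. In RC-K8-R the median lay at 0.00, none passed 1.5-fold (3.29% of all genes did), and the 35 lay between -0.31 and 0.20 with 18 above 0. ODC1, which makes the first polyamine, putrescine, was at 0.03 and 0.00, a response of -0.03 against 1.61 in RC-K8. The nucleolar helicase DDX21 was at 0.88 and 0.85, and in RC-K8 at 0.86 and 2.45. For DDX21 the untreated levels of the lines were thus nearly the same, and the treated levels were not. For cytosolic ribosomal protein genes, 66 measured, the RC-K8-R median was 0.02 and none was at 1.5-fold.

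Amino acid response genes, which the factor ATF4 drives when amino acids are short, also differed between the lines. In RC-K8 14 of 31 were at 1.5-fold, all higher (5.82% of all genes were), with a median of 0.45. In RC-K8-R none of the 31 was, against 3.29% of all genes, and the median was -0.01. The cystine transporter SLC7A11 was at 1.56 and 1.58 in RC-K8-R, and in RC-K8 at 1.39 and 2.57. ATF4 itself had a response of -0.00 in RC-K8-R and 0.50 in RC-K8. The highest members in RC-K8-R were the amino acid transporter SLC1A4 (0.41), NUPR1 (0.37) and the cationic amino acid transporter SLC7A1 (0.34).

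Unfolded protein response genes were lower with IL-21 in RC-K8 and level in RC-K8-R. Of 21 measured, 9 were at least 1.5-fold lower in RC-K8 (5.93% of all genes were) with a median of -0.51. In RC-K8-R 0 of 21 were (2.08% of all genes), with a median of -0.00. The chaperone HSPA5 was at 1.86 and 1.74 in RC-K8-R and the factor XBP1 at 1.27 and 1.22. For NF-kappaB targets the RC-K8-R median was 0.05, with 0 of 23 at 1.5-fold (3.29% of all genes were). In RC-K8 the median was -0.22, with 8 at least 1.5-fold lower and 1 higher (5.93% and 5.82% of all genes). TNF, a target of the factor, was at 4.71 and 4.90 in RC-K8-R. Glycolysis (0.01, 22 genes), hypoxia (0.07, 18), cholesterol and fatty acid synthesis (0.05, 27), heat shock (-0.05, 16) and p53 targets (0.04, 18) had medians near 0 in RC-K8-R. No gene of these lists was at 1.5-fold, against 3.29% of all genes.

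**Figure D4:**
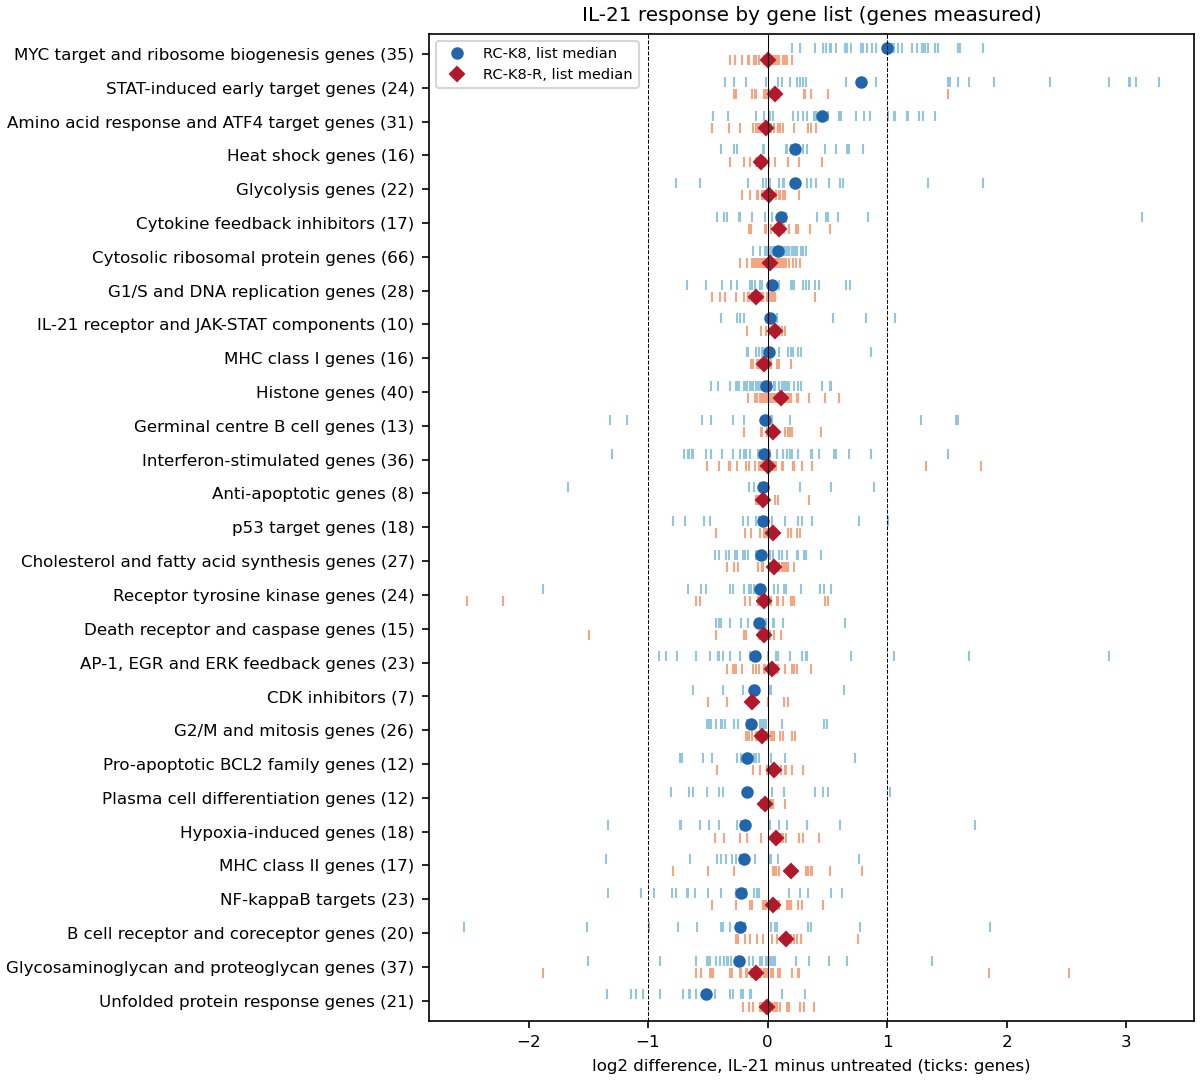
IL-21 minus untreated log2 difference (x axis) for 29 gene lists, with the number of measured genes in brackets, ordered by the RC-K8 median. Ticks are genes, circles RC-K8 medians and diamonds RC-K8-R medians. The RC-K8-R medians lie between -0.13 and 0.19, the RC-K8 medians between -0.51 and 0.995.

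Survival and death genes were mostly level in RC-K8-R. The gene of the survival protein BCL-XL, BCL2L1, was at 2.01 and 2.35, with probes at 0.25 and 0.44, and at 0.53 and -1.14 in RC-K8. With IL-21 its level in RC-K8-R was therefore above all other arrays. BCL2 (1.91 and 1.87), MCL1 (0.79 and 0.84) and BCL2A1 (2.44 and 2.41) were level. At 1.5-fold were 0 of 8 anti-apoptotic genes, near the 3.29% of all genes that reached it. Of 12 pro-apoptotic BCL2 family genes none did either, with BMF at 0.21 and BCL2L11 at 0.11 on 4 probes that ran from -0.44 to 0.27. Of 15 death receptor and caspase genes, the inflammatory caspase CASP1 was lower by more than 1.5-fold (-3.18 and -4.67, 1 probe). Of all genes 2.08% were at least 1.5-fold lower. The death receptor FAS was at 2.63 and 2.68 and the initiator caspase CASP8 at 0.67 and 0.65.

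Cell cycle genes had medians slightly below 0 in RC-K8-R, with none at 1.5-fold, against 3.29% of all genes. Of 28 genes of G1/S transition and DNA replication, 21 were below 0, and the median was -0.10 against 0.00 for all genes. The replication factors CDC6 (-0.46) and MCM2 (-0.40) and the cyclin CCNE2 (-0.36) were the lowest, and GINS2 (0.39), a replicative helicase subunit, was the highest. Of 26 genes of G2/M and mitosis, 17 were below 0 with a median of -0.05 and a range of -0.18 to 0.23. Histone genes had the opposite sign, with 29 of 40 above 0 and a median of 0.11. H3C12 (0.60) alone was at 1.5-fold, against 3.29% of all genes. Histone genes are alike in sequence, so their probes may not separate the copies.

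B cell genes and class II genes were slightly higher in RC-K8-R with IL-21. Of 20 B cell receptor and coreceptor genes 14 were above 0, with a median of 0.15, and CD79B alone passed 1.5-fold (3.29% of all genes did). The receptor kinase BTK (-2.44 and -2.16) and the phospholipase PLCG2 (3.07 and 3.35) were 0.28 higher, and CD20, encoded by MS4A1, was 0.26 lower (7.68 and 7.42). Class II antigen presentation genes had a median of 0.19 with 14 of 17 above 0. HLA-DRA was at 7.28 untreated and 8.07 with IL-21, the highest of the 4 arrays, and the invariant chain CD74 was at 6.29 and 6.65. HLA-DPA1 went the other way, at 5.18 and 4.39 on 2 probes (-1.25 and -0.32). So did HLA-DQA1, at 7.26 and 6.76 (probes at -0.84 and -0.16), and HLA-DOB (-0.285). Class II genes carry many alleles, and HLA-DRB copies are alike in sequence, so probe differences can depend on the alleles of the line.

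The range of ratios was wider on the treated RC-K8-R array (SD 1.54) than on the untreated one (1.5), and genes with high ratios had a median response of 0.06. With each array scaled to the same median absolute deviation, the class II median was 0.07, the B cell receptor median 0.07, CD79B 0.54 and HLA-DRA 0.51, each below 1.5-fold. The G1/S median was then -0.05 and the G2/M median -0.007. The germinal centre median was 0.05 (13 genes) and the plasma cell median -0.02 (12 genes), with no member at 1.5-fold (3.29% of all genes were). The plasma cell factor IRF4 was at 3.24 and 3.23. CD70, a TNF family ligand of activated B cells that is in none of the lists and was chosen after its value was seen, was at 1.46 and 2.28 on 1 probe, and at 1.34 and 1.28 in RC-K8. A difference of that size was found in 0.15% of genes at its level.

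Interferon-stimulated genes were split evenly, with 18 of 36 above 0 and a median of 0.00. ISG15 was at 2.13 and 2.16. HERC6 (-3.69 and -1.90) and MX2 were past 2-fold at low ratios, and the MX2 probes disagreed (-0.11 and 2.75). Class I antigen presentation genes had a median of -0.03 over 16 genes, and AP-1 and ERK feedback genes a median of 0.03 over 23. None was at 1.5-fold in either list, against 3.29% of all genes.

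The well-measured genes highest in RC-K8-R with IL-21 belonged to no single one of the lists. SLC7A7, a subunit of a cationic amino acid transporter, stood out for its level, at 3.75 untreated and 5.40 with IL-21 on 1 probe (3.14-fold). No other gene with a mean ratio of 2 or more was 2-fold higher, and SLC7A7 had the largest difference of the 332 genes at that level. In RC-K8 SLC7A7 was at 4.90 and 4.80, so the untreated RC-K8-R array held the lowest of the 4 values. TENT5C, a poly(A) polymerase of the B lineage, was at -2.85 and -1.65, and CD200, an inhibitory surface ligand, at -2.18 and -0.98. IRS2, an insulin receptor adaptor, had a median of 1.00 from probes at 0.04, 1.00 and 1.01, and the probe with the highest ratio was the one at 0.04.

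The other well-measured genes of this group were XAGE3 (-4.31 and -2.29), of a cancer-testis antigen family, SPAG16 (-2.72 and -0.79), the pseudogene HBBP1 (-2.35 and -0.94), DDN (-1.80 and -0.46), the matrix protein gene FRAS1 (-3.40 and -2.10) and the angiotensin receptor AGTR1 (-1.09 and -0.01). Each had 1 probe. XAGE3 and FRAS1 were below -2 on both RC-K8-R arrays and counted as well measured through their higher RC-K8 values. For all 9 well-measured genes 2-fold higher, the untreated RC-K8-R value was below the other 3 arrays, and for 3 of the 9 the treated value was above them. Over all well-measured genes with a response above 0 these shares were 29.8% and 58.6%. The 9 genes were picked for a large difference between the 2 RC-K8-R arrays, so a value apart on 1 of them is partly built in. The shares over all genes come mostly from small differences and are no matched background. Among the 9, a low untreated value was more frequent than a high treated one.

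The well-measured genes lowest with IL-21 were led by EGFR, SASH1 and CNTNAP3B. EGFR, the epidermal growth factor receptor, was at -0.86 and -3.37 on 1 probe (5.71-fold) against -1.54 and -1.65 in RC-K8. The adhesion molecule N-cadherin, CDH2, was at -0.82 and -2.33, the glutamate transporter SLC1A2 at -0.74 and -2.10, the homeobox gene MSX1 at -0.51 and -1.78, and the collagen gene COL3A1 at -1.40 and -2.91. SASH1 (-1.34 and -3.55), CNTNAP3B (a response of -1.78), ANGPTL8 (-2.22 and -3.52), the sterol transporter ABCG5 (-2.32 and -3.59) and SLC35F3 (-0.42 and -1.67) made up the rest. The probes of SASH1 (-3.78 and -0.65), COL3A1 (-2.86 and -0.15) and MSX1 (-2.44 and -0.11) differed widely in size. ANGPTL8 and ABCG5 were below -2 on both RC-K8-R arrays and counted as well measured through their higher RC-K8 values. For all 20 well-measured genes 2-fold lower, the treated RC-K8-R value was below the other 3 arrays, and for 5 the untreated value was above them. Over all well-measured genes with a response below 0 these shares were 53.3% and 36.7%. The 20 genes too were picked by the difference of the RC-K8-R arrays, so these shares are no matched background.

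**Figure D5:**
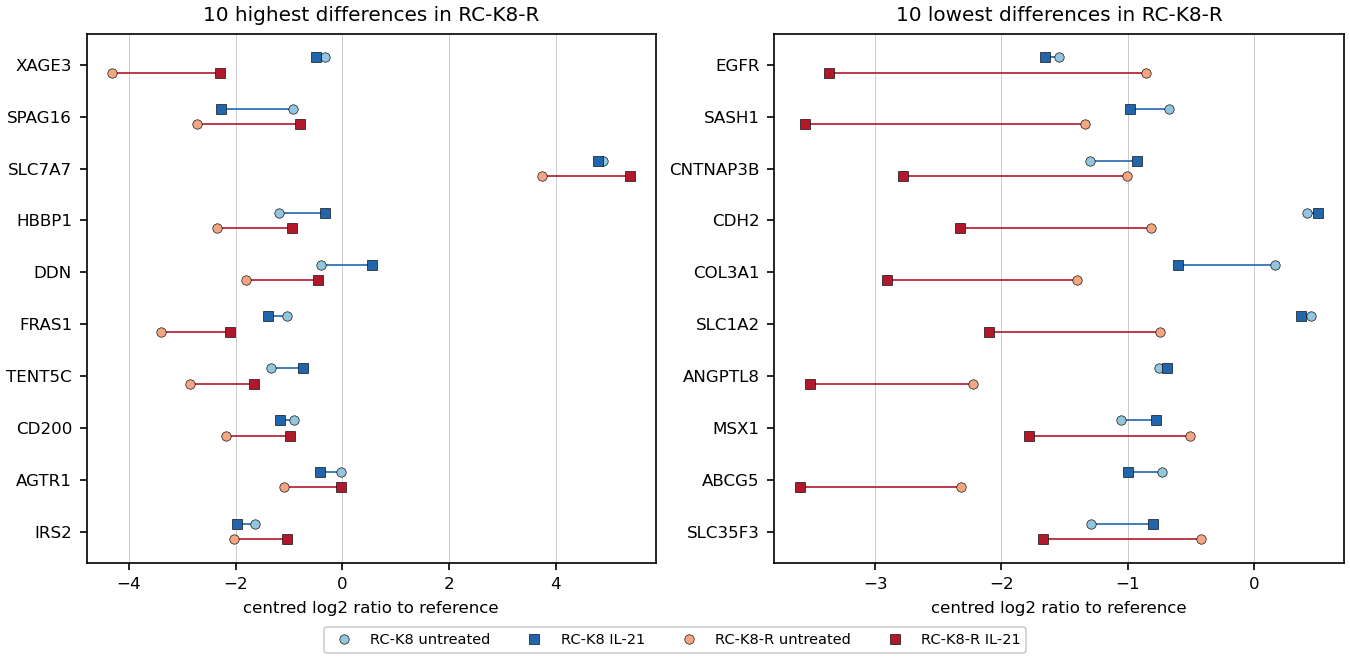
Centred log2 ratios to the reference (x axis) on the 4 arrays for the 10 highest (left) and 10 lowest (right) well-measured genes of RC-K8-R, circles untreated and squares with IL-21, with a line joining the arrays of a line. At left the untreated RC-K8-R value is the lowest of the 4 for each gene, and at right the treated RC-K8-R value is.

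On the higher side, genes with 2 or more probes gave smaller differences than the well-measured genes. Their 10 lowest ran from -2.21 to -1.11, against -2.51 to -1.25 for the 10 lowest well-measured genes. The 10 highest with all probes in the same direction ran from 0.68 to 1.10. SLAMF1, a surface receptor of lymphocytes, was at 6.61 and 7.30 (probes at 0.19 and 1.21), the highest ratio of the group. The growth factor HGF was at -2.21 and -1.53, with probes that agreed more closely, at 0.51 and 0.85, and SV2A was at -2.50 and -1.61 (0.41 and 1.37). FOXQ1, PTPN14, IRS2, TGM2 and SLC38A3 each had a probe under 0.2. GALNT11 (0.41 and 1.10) and LYPD3 (0.25 and 1.48) lay in between. None of the 10 had all its probes at 1.5-fold.

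The 7 genes with every probe at least 1.5-fold lower were ADCY9, SASH1, SMIM10, MAP1B, CCDC80, C1orf21 and GINS4, of which the last 4 are named because they are in this set, after values were seen. GINS4, a subunit of the GINS complex of DNA replication, was at -0.65 untreated and -1.31 with IL-21, with both probes at -0.66, and at -0.69 and -0.45 in RC-K8. The microtubule-associated protein gene MAP1B was at -4.53 and -5.55 (probes at -1.13 and -0.92). GINS4 and SASH1 were the well-measured ones of the 7. The remaining genes of the 10 lowest with several probes were DLL3, COL3A1, LY6K, ARHGEF25, MSX1, BTBD3 and LIMCH1, each with 1 probe under 1.5-fold.

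At low ratios the differences were larger and rested on single probes. Of the 127 genes at 2-fold, 98 (77.2%) had a mean ratio below -2, where 8.44% of genes were at 2-fold, and 112 (88.2%) had 1 probe, against 67.4% of all genes. The endocytic protein gene EHD3 was at -6.47 and -3.58, GXYLT2 at -5.99 and -3.12, CSGALNACT1, an enzyme of chondroitin sulfate synthesis, at -6.95 and -4.43, and PRUNE2 at -5.35 and -2.92. GPD2, the mitochondrial glycerol-3-phosphate dehydrogenase, was at -1.59 and -4.90, VAT1L at -4.50 and -7.43, KCNS3, a potassium channel subunit, at -2.84 and -5.62, and SH3RF3 at -2.54 and -5.24. Over all 46 genes 2-fold higher, the untreated RC-K8-R value was below the other 3 arrays in 43. Over all 81 genes 2-fold lower, the treated value was below the others in 77. Both sets were picked by the difference of these arrays, which partly builds this in. At these ratios the sample signal is a small part of the reference signal, and the deposited values carry no signal from which its precision could be read.

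Proteoglycan genes and receptor tyrosine kinases held several of these single-probe genes. Of all genes 0.342% were 2-fold higher and 0.602% lower, and of genes with a mean ratio below -2, 3.19% and 5.25%. Of 37 proteoglycan genes 25 were below 0. CSGALNACT1 and SDC2 (-7.29 and -5.44) were 2-fold higher and SPOCK1 (-3.09 and -4.97) was 2-fold lower. Of 24 receptor tyrosine kinases, EGFR and PDGFRA (-3.22 and -5.44) were 2-fold lower, none was 2-fold higher, and the median was -0.03. Markers of hepatocytes, fibroblasts and epithelium were low on both arrays, with median levels of -6.36 and -6.40 for hepatocytes, -4.47 and -4.47 for fibroblasts and -4.37 and -4.65 for epithelium. Of the 7 fibroblast markers, of which 2 were well measured, 2 were at least 1.5-fold lower. Over all genes 2.08% were, and over genes with a mean ratio below -2 11.8% were. COL3A1 was among those lower, with probes at -2.86 and -0.15. Whether such cells had a part in the lower genes was not tested. The B cell marker median was 1.73 untreated and 2.13 with IL-21. T and NK cell markers were at median levels of -0.84 and -0.76 and myeloid markers at -0.58 and -0.58, much nearer to the array median of 0 than the other 3 lists. Their median responses were -0.11 and -0.14, and among the myeloid ones LY96 (-4.39 and -6.09) alone passed 2-fold. In bulk RNA, fewer cells of a type and less RNA per cell cannot be told apart.

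Few genes differed in both lines. Among well-measured genes at 1.5-fold, 6 were higher in both, which is 0.846% of the 709 of RC-K8 and 6.98% of the 86 of RC-K8-R. A further 7 were lower in both, which is 1.09% of the 643 of RC-K8 and 4.9% of the 143 of RC-K8-R. Of all well-measured genes 0.7% were higher and 1.16% lower in RC-K8-R, so the shared counts were close to the background. In 8 genes RC-K8 was the higher and RC-K8-R the lower, and in 5 it was the other way round, shares of 1.13% and 0.778% of the RC-K8 genes. The shared genes are given by their values only. CCR4, a chemokine receptor, was at 5.88 and 6.62 in RC-K8-R and at 3.93 and 5.14 in RC-K8. It was 0.498 higher in RC-K8-R after scaling to equal median absolute deviation, which is below 1.5-fold. DDN, HBBP1, TENT5C, ERVFRD-1 (-0.07 and 0.68) and CNNM2 (-0.90 and -0.30) were the other 5. The adhesion receptor CD226 was at 3.84 and 3.08 in RC-K8-R and at 2.72 and 1.46 in RC-K8. The RNA methyltransferase METTL16 was at 1.25 and 0.17, and at 0.95 and 0.30 in RC-K8, so it had the lowest value on the treated RC-K8-R array. GIMAP2 (-2.08 and -2.94) and KLHDC9 (-0.26 and -0.98) were also lower in both. For COL3A1 this rested on 1 of its 2 probes, since they were at -1.66 and 0.13 in RC-K8.

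Another 805 genes had values on both RC-K8-R arrays but not on all 4, and 13 of them were 2-fold higher and 13 lower (3.23%). IL13, a T helper cytokine, was the one with the highest ratios, at 4.84 and 6.15 on 1 probe that was blank on both RC-K8 arrays. TLR7, an endosomal RNA sensor of B cells, was at 0.41 and -0.84, and the kinase SYK at 0.73 and 1.60, again blank in RC-K8. These 3 were chosen after their values were seen. A value on the treated RC-K8-R array alone was found for 1273 probes and on the untreated one alone for 778, which is 4.79% and 2.99% of the probes with a value on that array. Why cells of the table are blank is not given in the sources used here.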

How the data were processed

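Per the labels, total RNA came from a Trizol extraction, and on each of 4 Agilent oligonucleotide arrays the cells' cDNA was in Cy5 and a human reference RNA in Cy3. The deposited values are log2 ratios of sample over reference, as read here: the table states no log base, centring or direction, and a natural log would make every fold larger with the same direction. How background, normalization and spots were handled is not stated in the labels. As deposited, array medians were -0.107 and -0.123 (RC-K8 untreated, IL-21) and -0.106 and -0.111 (RC-K8-R untreated, IL-21). Direction followed from the dyes. The platform annotation named 1 gene for 25570 probes, several for 28 and did not list 5497, and RefSeq (GRCh38.p14) gave promoters.

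Each array was centred, probes were differenced and the median taken per gene (Python 3.11.15, pandas 2.3.3), and tested on simulated data. Named genes were the 10 highest and 10 lowest well-measured genes and genes with several agreeing probes, the 5 highest and lowest of all, list members at 1.5-fold, all members of the receptor, feedback, early target and anti-apoptotic lists, the 10 highest and lowest of RC-K8, and 5 each way shared by both lines. Other list examples were chosen after values were seen. The lists and rules were chosen with earlier results of these data known. Alternatives were other normalizations (none, quantile, equal median absolute deviation, loess with span 0.3), probe summaries, gene filters and thresholds. The number of arrays limits the precision.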

Additional observations from a re-analysis of the deposited data

Results flagged for a closer look

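Of the genes named, 6 were at 1.5-fold or more in opposite directions in the 2 lines, a difference that was not tested because there was 1 array per group. CD79B had a response of 0.75 in RC-K8-R and -2.54 in RC-K8, on 1 probe. SPAG16 had 1.93 in RC-K8-R and -1.35 in RC-K8, GXYLT2 2.87 and -0.92, TGM2 0.87 and -0.82, SPOCK1 -1.88 and 1.37, and MX2 1.32 and -0.70. GXYLT2, TGM2, SPOCK1 and MX2 had mean ratios below -2. The TGM2 probes were at 0.09 and 1.65 in RC-K8-R, and at 0.29 and -1.92 in RC-K8, so its opposite direction rested on 1 probe. Those of MX2 were at -0.11 and 2.75 in RC-K8-R.

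Probes without a gene name were used in no gene result above. Of the 3690 unnamed probes with a mean ratio of -2 or more, 10 were at 2-fold in RC-K8-R, 1 higher and 9 lower.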

How the results depend on the processing

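Counts at 2-fold in RC-K8-R were 46 higher and 81 lower over all genes, and 9 and 20 over well-measured genes. With every probe as its own feature they were 74 and 127, and 16 and 31. At 1.5-fold they were 162 and 280, and 86 and 143. At 3-fold they were 17 and 29, and 3 and 3. With only genes of 2 or more probes in the same direction they were 2 and 11, and 0 and 4. Values required on the RC-K8-R arrays alone gave 14 well-measured genes higher. The filters and thresholds change the counts by their construction, and other causes were not tested. No list of the 29 reached a median of 1.5-fold under the settings run. Of 57 named genes at 1.5-fold, all kept their direction under 7 alternatives and 39 stayed at 1.5-fold under each, and 43 were past it when the probe of highest mean ratio stood for its gene. No paired analysis was possible because each group had 1 array and no test was made. Ratios below -2, where the spread was widest, limit the single-probe values.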
